A study of Mus musculus with 5 samples.

Results

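Matricellular proteins are secreted into the extracellular matrix, where they bind collagens, growth factors, proteases and cell-surface receptors and change how cells attach and signal without being a main structural part of the matrix. The 10 transcripts described here were chosen by name from 4 protein families and were found among the 56941 genes of the deposited count table: the thrombospondins Thbs1, Thbs2, Thbs3 and Thbs4, the tenascins Tnc and Tnxb, the fasciclin-domain proteins Postn (periostin) and Tgfbi, and the CCN proteins Ccn1 (Cyr61) and Ccn2 (Ctgf). The rule names genes and uses no measured value, though earlier results of these data were known when it was set.

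RNA was sequenced from the iridocorneal angle, the ring of tissue at the edge of the cornea that holds the trabecular meshwork and drains aqueous humor. DBA/2J mice carry mutant alleles of Gpnmb and Tyrp1 and develop pigmentary glaucoma, and the Gpnmb+ controls (DBA/2J-Gpnmb+/Sj) are the same inbred background with a functional Gpnmb allele and the same Tyrp1 allele. The labels give all animals as untreated, 12 months old and of both sexes. The DBA/2J group has 3 pools and the Gpnmb+ group has 2, with 3 mice given for every pool, although the library names list 3 animals for every DBA/2J pool and 2 for each Gpnmb+ pool. Iris and ciliary body were dissected away, and the methods state that remnants of both stayed attached.

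In the outflow pathway, thrombospondin-1 and integrins can release transforming growth factor beta (TGF-beta) from its latent form, and TGF-beta in turn induces many matricellular genes, among them Ccn2, Thbs1, Tnc, Postn and Tgfbi. Ccn1 and Ccn2 are also textbook targets of the mechanosensitive coactivators YAP and TAZ, which act through TEAD factors, and Ccn1 was first found as an immediate early gene, transcribed within minutes of a stimulus. Matricellular genes are known for being switched on in wounded, stretched or fibrotic tissue.

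Counts on genes summed to between 43900661 and 49837758 per pool, and levels are given as CPM, counts scaled to the TMM library size of each pool. Gpnmb counts were 1946 to 2234 with the mutant allele and 110568 to 129659 with the functional allele, which follows the strain labels. Y-linked Ddx3y had 81.2, 97.1 and 35.1 CPM across the DBA/2J pools against 0 and 0.0818 CPM in Gpnmb+. Neither Gpnmb+ pool had more than 4 counts of any of 4 Y-linked genes, which goes against the males given for this group, and DBA/2J pool 2 had no count of Xist. Sex composition and genotype therefore cannot be told apart here. Myoc, a defining transcript of the trabecular meshwork, was present in all pools, at 160 to 326 CPM in DBA/2J and 435 to 535 CPM in Gpnmb+. DBA/2J pool 1 stood apart in immediate early genes, which are described beside Ccn1, and the values of the 10 genes that rest on it are given with and without it. These are whole-tissue measurements, in which fewer cells of a type and less RNA per cell cannot be told apart.

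The angle tissue expressed all 10 genes, and most of them at high levels. Divided by the merged exon length of each gene, Ccn2 was highest at a mean over the 5 pools of 235 CPM per kb (pool range 178 to 364). Thbs1 followed at 134 (106 to 187) and Ccn1 at 124 CPM per kb (48.5 to 408). These levels stood above 99.5%, 99.1% and 99% of the 19613 tested genes with an annotated length. Tgfbi had 73.2 CPM per kb (45.4 to 117), and Thbs2, Postn and Thbs4 had 42.5, 37.4 and 34 CPM per kb, an order that depends on the length used (101, 130 and 43.4 by coding length). Tnc was at 21.2 CPM per kb (15.5 to 31). Tnxb and Thbs3 were much lower, at 4.46 (3.35 to 5.28) and 3.41 CPM per kb (2.34 to 4.17), which is still above 64.7% and 58.6% of genes. In this order the pool ranges of neighbouring genes overlapped, except between Tnc and Tnxb. The place of Ccn1 rested on DBA/2J pool 1. Without that pool Ccn1 averaged 53.5 CPM per kb (48.5 to 58.3), above 97.1% of genes and below Tgfbi at 62.3, while Ccn2 and Thbs1 still led at 203 and 121 CPM per kb.

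**Figure D1:**
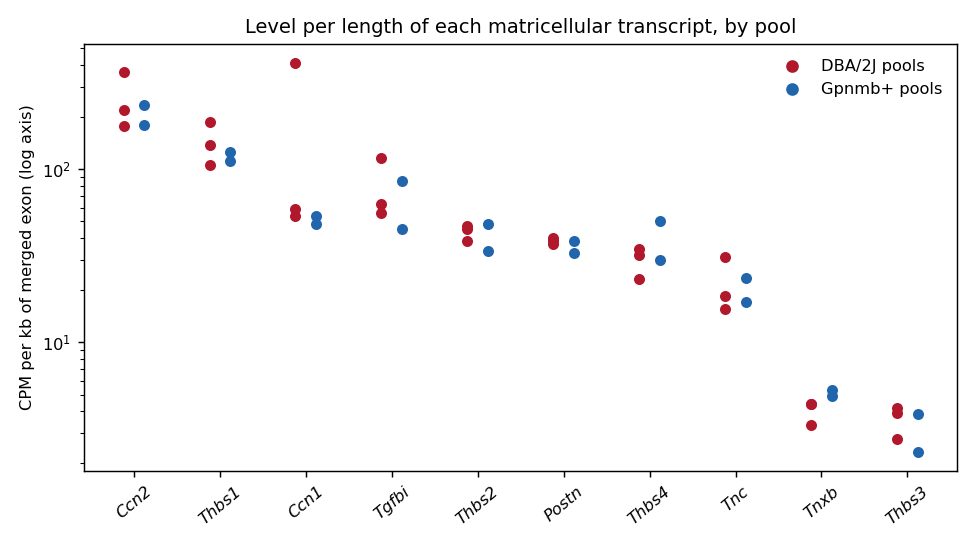
CPM per kb of merged exon (log axis) for each of the 10 transcripts, one point per pool, with DBA/2J pools in red and Gpnmb+ pools in blue. Ccn2, Thbs1 and Ccn1 lead with means of 235, 134 and 124 CPM per kb, Tnxb and Thbs3 are lowest, and a single DBA/2J pool lifts Ccn1 to 408.

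The bases just upstream of Ccn1 and Thbs1 are shown because these genes, both highly expressed and highest in DBA/2J pool 1, are classic inducible genes whose promoters carry known response elements. Each line gives the 250 bases before the start of the canonical transcript in GRCm39 (GENCODE annotation), 5′ to 3′ on the coding strand. Capitals mark TEAD motifs (GGAATG, or CATTCC when read from the other strand) and AP-1 motifs (TGANTCA). Ccn1 lies on the minus strand with its upstream window at chr3:145355739-145355988 and Thbs1 on the plus strand at chr2:117941724-117941973.
Ccn1: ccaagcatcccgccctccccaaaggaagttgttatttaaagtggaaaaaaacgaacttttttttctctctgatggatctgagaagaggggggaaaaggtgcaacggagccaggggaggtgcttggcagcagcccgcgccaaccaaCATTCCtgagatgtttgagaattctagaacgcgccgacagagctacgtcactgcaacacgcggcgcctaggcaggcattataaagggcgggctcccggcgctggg
Thbs1: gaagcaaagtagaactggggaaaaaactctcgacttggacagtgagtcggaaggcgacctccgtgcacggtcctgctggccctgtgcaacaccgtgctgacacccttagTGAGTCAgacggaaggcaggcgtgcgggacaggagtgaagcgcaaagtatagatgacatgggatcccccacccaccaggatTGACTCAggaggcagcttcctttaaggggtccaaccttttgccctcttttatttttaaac
Ccn1 held 1 TEAD motif, starting 105 bases before the transcript. Thbs1 held no TEAD motif and 2 AP-1 motifs, at 141 and 60 bases. Ccn1 also had the letters TATAAA 27 bases before its start. Searched on both strands of the same 250-base window, a TEAD motif was present in 12.1% of the promoters of 21757 protein-coding genes. An AP-1 motif was present in 6.18% of promoters. Neither the cyclic AMP response element TGACGTCA (1.7% of promoters) nor a CArG box (1.4%), the serum response element core, was found in the window of Ccn1 or Thbs1. These matches describe the letters in the window and are not evidence of binding.

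Between genotypes, none of the 10 matricellular transcripts was called. A gene was called at a Benjamini-Hochberg adjusted p of at most 0.05 from edgeR's quasi-likelihood test with a fold change of at least 1.5, and a positive log2 fold change means a higher level in DBA/2J. By this rule 0 of the 10 genes were called, against 0.796% of the 19713 genes tested. With the unadjusted p in its place 0 of the 10 passed, against 8.67% of genes, and DESeq2 called 0 of the 10 against 4.7%. The median log2 fold change of the 10 was 0.17, beside -0.02 for all genes tested, and -0.00417 without DBA/2J pool 1. The DBA/2J and Gpnmb+ pools did not overlap for 2 of the 10, Tnxb and Ccn1, while 34.5% of all tested genes showed such an arrangement. All 10 passed the count minimum in every pool. The p-values measure the spread between these pools, each of which already averages several mice.

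**Figure D2:**
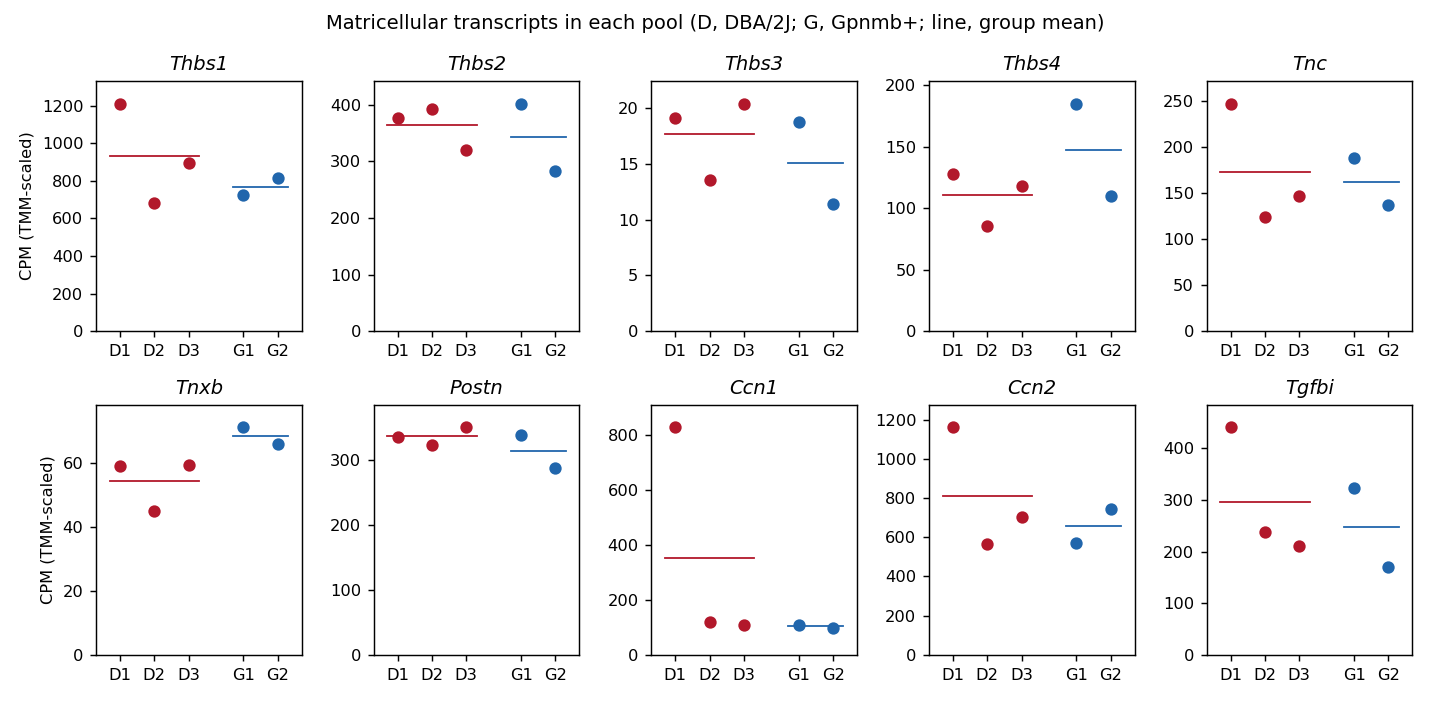
TMM-scaled CPM of the 10 matricellular transcripts in DBA/2J pools 1 to 3 (D1 to D3, red) and Gpnmb+ pools 1 and 2 (G1, G2, blue), with a line at each group mean and every axis starting at 0. The groups overlap in 8 of the 10 panels, and DBA/2J pool 1 is the highest point for Thbs1, Tnc, Ccn1, Ccn2 and Tgfbi.

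Among the thrombospondins, large calcium-binding glycoproteins that act as trimers or pentamers, none differed between genotypes by the test. Thbs1 (chr2:117941974-117957616, 22 exons) encodes the trimeric activator of latent TGF-beta and inhibitor of angiogenesis. It had 1210, 684 and 896 CPM across the DBA/2J pools, in order from pool 1 to pool 3, against 724 and 813 CPM in Gpnmb+ pools 1 and 2, the order used throughout. The DBA/2J pools held both the highest and the lowest value, and the Gpnmb+ pools lay between them. The means were 929 ± 262 (SD, n = 3) and 768 ± 63.1 CPM (SD, n = 2), and the genotypes differed by 0.27 log2 units (standard error 0.24, edgeR adjusted p = 0.63). Without DBA/2J pool 1 the log2 fold change was 0.04.

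Thbs2 (chr17:14885761-14914528, 22 exons), the second trimeric and anti-angiogenic thrombospondin, was measured at 377, 393 and 321 CPM in DBA/2J and 402 and 283 CPM in Gpnmb+. Here the Gpnmb+ pools were the highest and the lowest of the 5. The log2 fold change was 0.08, with a 95% interval of -0.34 to 0.51 that lies inside a 1.5-fold change in either direction (edgeR adjusted p = 0.85). The upper bound passed 1.5-fold when DBA/2J pool 1 (0.60), DBA/2J pool 3 (0.65) or Gpnmb+ pool 1 (0.77) was left out. Per read of Thbs2 there were 3.2, 1.74 and 2.79 reads of Thbs1 in DBA/2J and 1.8 and 2.87 in Gpnmb+, so the balance of these related genes also overlapped between genotypes.

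The pentameric thrombospondins Thbs3 and Thbs4 are known for cartilage, bone, tendon and muscle matrix. Thbs4 (chr13:92888095-92931501, 22 exons) had 128, 85.4 and 118 CPM in DBA/2J and 185 and 110 CPM in Gpnmb+. Gpnmb+ pool 1 stood highest, and Gpnmb+ pool 2 lay among the DBA/2J pools. Its log2 fold change of -0.41 (standard error 0.26) was the lowest of the 10 and did not pass the test (edgeR adjusted p = 0.49). Thbs3 (chr3:89122461-89134144, 23 exons) had 19.1, 13.6 and 20.4 CPM in DBA/2J and 18.8 and 11.4 CPM in Gpnmb+. Its groups overlapped, with a log2 fold change of 0.23 (standard error 0.26, edgeR adjusted p = 0.73). Thbs3 is uncertain, because 7.11% of its exon bases overlap Mtx1 on the opposite strand, which had 695 to 818 counts per pool, and the strand used in counting is not given in the sources used here.

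The tenascins are large modular proteins that loosen or space the matrix. Tnc (chr4:63878014-63965443, 26 exons), tenascin-C, which appears in wounds and under mechanical strain, had 247, 124 and 147 CPM in DBA/2J and 188 and 137 CPM in Gpnmb+. DBA/2J pool 1 was highest and DBA/2J pool 2 lowest, with both Gpnmb+ pools between. The log2 fold change was 0.09 (standard error 0.31, edgeR adjusted p = 0.92) and changed sign to -0.26 without DBA/2J pool 1.

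Tnxb (chr17:34879431-34938789, 44 exons), tenascin-X, which spaces collagen fibrils in loose connective tissue, came closest to a genotype difference. It had 59.1, 45.2 and 59.3 CPM in DBA/2J and 71.2 and 65.9 CPM in Gpnmb+. All 3 DBA/2J pools lay below both Gpnmb+ pools. The means were 54.5 ± 8.06 (SD, n = 3) and 68.5 ± 3.73 CPM (SD, n = 2). The log2 fold change was -0.33 (standard error 0.14, 95% interval -0.67 to 0.01), with an edgeR adjusted p of 0.33. It kept its sign under all 12 alternatives tried, from -0.40 to -0.12. Across the 5 pools, the genes with the most similar profile to Tnxb were Dffb, Ttc14 and Piezo2, at Euclidean distances of 0.0363, 0.0434 and 0.0603 on centred log2 CPM among 15177 genes compared. Piezo2, a mechanically gated ion channel, for example ran at 50.9, 39.2 and 49.4 CPM in DBA/2J and 62.8 and 56.1 CPM in Gpnmb+.

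The fasciclin-domain proteins behaved differently from each other. Postn (chr3:54268501-54298471, 21 exons), periostin, which binds collagen and tenascin-C and supports collagen crosslinking, was the steadiest of the 10. It had 336, 323 and 350 CPM in DBA/2J and 339 and 288 CPM in Gpnmb+. Gpnmb+ pool 1 lay inside the DBA/2J range and Gpnmb+ pool 2 below it. The log2 fold change was 0.10 with a 95% interval of -0.15 to 0.36, which excludes a 1.5-fold change in either direction (edgeR adjusted p = 0.69).

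Tgfbi (chr13:56757336-56787375, 17 exons) encodes the TGF-beta-induced adhesion protein that is abundant in cornea and whose mutations cause corneal dystrophies. It had 440, 237 and 210 CPM in DBA/2J and 323 and 171 CPM in Gpnmb+. Pool 1 was the highest pool of each genotype. The log2 fold change was 0.26 (standard error 0.40, edgeR adjusted p = 0.80), and it was -0.14 without DBA/2J pool 1. Its order of pools, from DBA/2J pool 1 through Gpnmb+ pool 1, DBA/2J pool 2 and DBA/2J pool 3 to Gpnmb+ pool 2, was shared by 1.55% of 15178 genes. Of 6 corneal epithelium markers 0 were called by edgeR or DESeq2, against 0.796% and 4.7% of all genes. Their summed level ran from 6350 to 10600 CPM in DBA/2J and from 10400 to 11900 CPM in Gpnmb+. Krt12, the cornea-specific keratin among them, was the single marker with an unadjusted edgeR p of at most 0.05, at 254, 116 and 9.44 CPM in DBA/2J and 1700 and 554 CPM in Gpnmb+ (log2 fold change -3.16). The part of epithelium in the Tgfbi values was not tested.

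In both CCN genes DBA/2J pool 1 stood above all other pools. Ccn2 (chr10:24471333-24474900, 5 exons), connective tissue growth factor, had 1160, 568 and 701 CPM in DBA/2J and 571 and 743 CPM in Gpnmb+. DBA/2J pool 1 stood above the remaining pools, among which the genotypes were mixed. The log2 fold change was 0.30 (standard error 0.31, edgeR adjusted p = 0.70) with all pools and -0.05 without DBA/2J pool 1. Of its exon bases, 36.5% overlap the antisense gene Gm15270, whose counts were at most 0.688% of those of Ccn2. Because the counting strand is not given, these counts do not show how many reads of Ccn2 were affected.

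Ccn1 (chr3:145352720-145355738, 5 exons), the matricellular ligand of several integrins, had 829, 119 and 109 CPM in DBA/2J and 109 and 98.6 CPM in Gpnmb+. A single pool stood far above the others, and the remaining 4 lay within a narrow band in which DBA/2J was only just higher. The means were 352 ± 413 (SD, n = 3) and 104 ± 7.19 CPM (SD, n = 2), and the log2 fold change was 1.76 with a 95% interval of -0.58 to 4.11 (edgeR adjusted p = 0.43). Without DBA/2J pool 1 the log2 fold change was 0.13 with a 95% interval of -0.13 to 0.39 (edgeR adjusted p = 0.64). Ccn1 reads per read of Ccn2 were 0.715 in DBA/2J pool 1 and between 0.133 and 0.209 in the other pools. Of the exon bases of Ccn1, 23% overlap the antisense gene Gm17501, whose counts were at most 3.48% of those of Ccn1. The same limit of the unknown counting strand holds here.

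**Figure D3:**
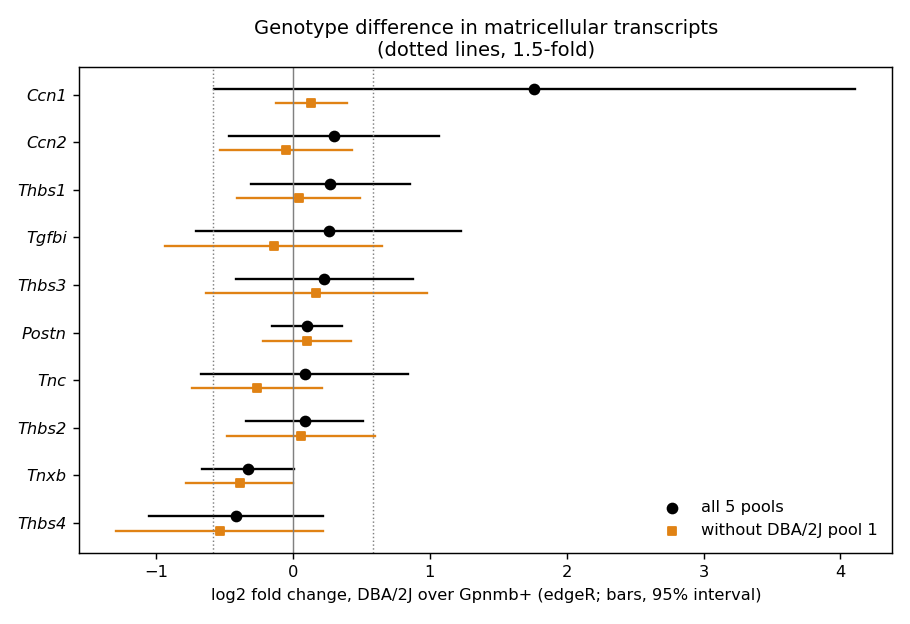
Log2 fold change of each matricellular transcript (DBA/2J over Gpnmb+, edgeR) with its 95% interval, for all 5 pools (black circles) and without DBA/2J pool 1 (orange squares), with dotted lines at 1.5-fold. Every interval includes 0, and Ccn1 moves from 1.76 to 0.13 when the pool is left out.

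The excess of Ccn1 in DBA/2J pool 1 coincided with that of immediate early genes, transcription factors and feedback regulators that cells switch on quickly and without new protein synthesis. Ccn1 in this pool was 6.99-fold above the next highest pool. When a small constant was added to both CPM values, so that low levels weighed less, 12 of 15178 genes had a larger ratio than Ccn1. In order of this adjusted ratio these were Nr4a1, Egr3, Arc, Nr4a3, Muc5ac, Reg3g, Il6, Fosb, Ptgs2, Egr1, Apold1 and Btg2. Of a list of 16 immediate early genes that leaves out Ccn1, 15 were highest in DBA/2J pool 1, the exception being Klf4, while 22.7% of the 15178 genes were highest there. Nr4a1 stood at 375 CPM in that pool and between 4.85 and 9.42 CPM in the others. Egr3 stood at 48.7 CPM against 0.981 to 1.75 CPM. Summed over the list, the level was 2950 CPM in DBA/2J pool 1, 709 and 783 CPM in DBA/2J pools 2 and 3, and 647 and 830 CPM in the Gpnmb+ pools.

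The same pool was the highest for 5 of the 10 matricellular genes, by smaller factors over the next pool for the other four: 1.56-fold for Ccn2, 1.37-fold for Tgfbi, 1.35-fold for Thbs1 and 1.31-fold for Tnc. Thbs2, Thbs3, Thbs4, Postn and Tnxb were not highest there. Summed over the 10 genes, the level was 4800 CPM in DBA/2J pool 1 and 2590 to 2930 CPM in the other pools, where the genotypes overlapped. None of the 16 immediate early genes was called between genotypes by edgeR, against 0.796% of all genes. Their median log2 fold change was 1.13 with all pools and 0.20 without DBA/2J pool 1. The part of this response in the matricellular levels was not tested.

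**Figure D4:**
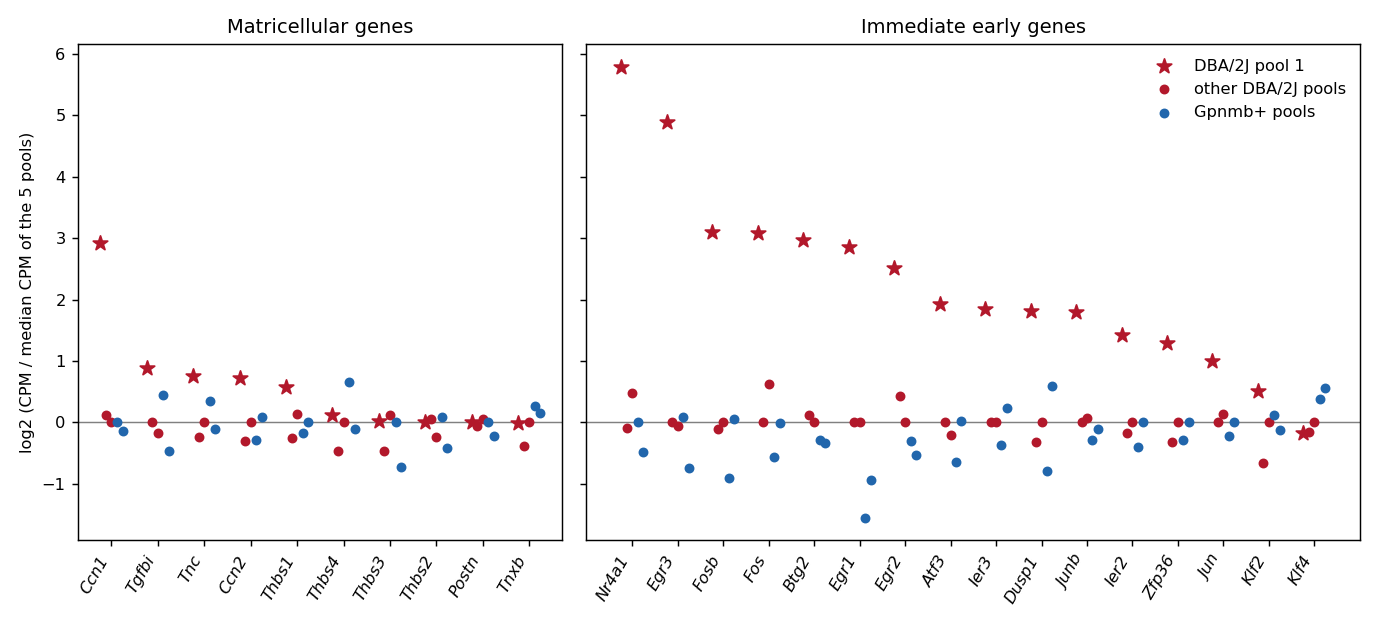
Log2 ratio of each pool's CPM to the median of the 5 pools, for the matricellular genes (left) and the immediate early genes (right), ordered by the value in DBA/2J pool 1 (red stars; other DBA/2J pools red circles, Gpnmb+ pools blue circles). Ccn1 sits at the height of Fosb, Fos and Btg2, and Tgfbi, Tnc, Ccn2 and Thbs1 show smaller excesses in the same pool.

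For 7 of the 10 genes, the log2 difference between the Gpnmb+ pools was larger than that between genotypes. The 2 Gpnmb+ pools differed by 0.91 log2 units in Tgfbi, 0.75 in Thbs4, 0.71 in Thbs3, 0.51 in Thbs2 and 0.45 in Tnc, all higher in pool 1, where the median absolute difference over 15178 genes was 0.17. Ccn2 and Thbs1 went the other way, at -0.38 and -0.17. The DBA/2J pools spanned 2.93 log2 units in Ccn1, 1.07 in Tgfbi, 1.03 in Ccn2, 0.99 in Tnc and 0.82 in Thbs1, beside a median span of 0.26 over the same 15178 genes. Postn spanned 0.11 units in DBA/2J. By distance of centred log2 CPM over the 5 pools, Thbs1 and Ccn2 were each other's nearest among the 10 (0.263), as were Thbs2 and Postn (0.353), Thbs4 and Tnxb (0.476), and Tnc and Tgfbi (0.508). Thbs3 lay nearest to Postn (0.523) and Ccn1 nearest to Tgfbi (1.87). With 5 pools these pairs are a description.

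The remaining thrombospondin, tenascin, CCN and SPARC-family genes and osteopontin were listed for comparison. Of 15 genes, 14 passed the count minimum and 1 was called by edgeR, against 0.796% of all genes. Smoc1, a calcium-binding SPARC-family protein of basement membranes, fell in DBA/2J. Its levels were 70.9, 77 and 74 CPM in DBA/2J and 112 and 126 CPM in Gpnmb+, with no overlap and a log2 fold change of -0.69 (standard error 0.09, edgeR adjusted p = 0.0402). The largest differences besides were in the testican proteoglycans. Spock1 stood at 249, 326 and 357 CPM in DBA/2J against 156 and 124 CPM in Gpnmb+ (log2 fold change 1.15, edgeR adjusted p = 0.0624), and it was called without the count filter (1.17, edgeR adjusted p = 0.0245) and by DESeq2. Spock2 stood at 31.4, 51.6 and 42.8 against 69.1 and 73.2 CPM (-0.76, edgeR adjusted p = 0.153), and it was also called by DESeq2. The median log2 fold change of the list was 0.11, and 0.20 without DBA/2J pool 1. DESeq2 called 3 of its genes higher and 2 lower, against 4.7% of all genes.

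Of 14 receptors through which matricellular proteins act, such as Cd36, Cd47 and integrin subunits, 0 were called by edgeR, against 0.796% of all genes, and the median log2 fold change was 0.13. Itga8, the integrin alpha-8 subunit that pairs with beta-1, had 11.1, 21.8 and 16.7 CPM in DBA/2J and 35.4 and 32.3 CPM in Gpnmb+ (log2 fold change -1.03, edgeR adjusted p = 0.147, the 1 gene of the 14 called by DESeq2, against 4.7% of all genes). Itga3 had 121, 63.3 and 61.4 CPM in DBA/2J and 55.6 and 45 CPM in Gpnmb+ (0.70, edgeR adjusted p = 0.36), and its log2 fold change was 0.31 without DBA/2J pool 1.

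Of 14 collagens, proteoglycans and enzymes that matricellular proteins bind or work with, 0 were called by edgeR, against 0.796% of all genes. However, 10 had an unadjusted edgeR p of at most 0.05 (15.9% of all genes). DESeq2 called 6, all higher in DBA/2J (4.7% of all genes in either direction). The median log2 fold change was 0.53, and 0.45 without DBA/2J pool 1. Lox, lysyl oxidase, which crosslinks collagen with the aid of periostin, had 207, 100 and 167 CPM in DBA/2J and 72.4 and 57.6 CPM in Gpnmb+ (log2 fold change 1.28, edgeR adjusted p = 0.134). Col3a1 had 1510, 920 and 1560 CPM against 809 and 414 CPM (1.12, edgeR adjusted p = 0.221), and leaving out Gpnmb+ pool 1 gave 1.69 and leaving out pool 2 gave 0.72. Lox and Col3a1 were both among the DESeq2 calls. In both genes every DBA/2J pool lay above both Gpnmb+ pools, an arrangement found in either direction for 10 of the 14 and for 34.5% of all genes.

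TGF-beta ligands, receptors and latent binding proteins gave 1 edgeR call among 10 genes, against 0.796% of all genes, and 3 DESeq2 calls, all higher, against 4.7%. The median log2 fold change was 0.21. Ltbp3, which anchors latent TGF-beta in the matrix, rose in DBA/2J, at 315, 305 and 329 CPM against 205 and 176 CPM (log2 fold change 0.73, edgeR adjusted p = 0.0479). Tgfb2, the main TGF-beta isoform of aqueous humor, had 270, 284 and 278 CPM in DBA/2J and 203 and 150 CPM in Gpnmb+ (0.65, edgeR adjusted p = 0.108), and it was called when Gpnmb+ pool 1 was left out (0.88, edgeR adjusted p = 0.0462).

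Of 6 TGF-beta-induced genes outside the 10 that are reported here, 1 was called by edgeR, against 0.796% of all genes. Pmepa1, a feedback inhibitor of TGF-beta signalling, rose in DBA/2J, at 176, 153 and 167 CPM against 99.2 and 91.1 CPM (0.80, edgeR adjusted p = 0.0379). Lox and Fn1, counted above, are also in this list. The median log2 fold change of the 6 was 0.30. Without DBA/2J pool 1 it was 0.11, and 0 of the 6 were called. DESeq2 called 2, against 4.7% of all genes. The matricellular genes that TGF-beta induces stood beside these at log2 fold changes of 0.30 for Ccn2, 0.27 for Thbs1, 0.26 for Tgfbi, 0.10 for Postn and 0.09 for Tnc, none of them called.

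Of 20 YAP and TAZ target genes besides Ccn1 and Ccn2, Tgfb2 among them, 0 were called by edgeR, against 0.796% of all genes, DESeq2 called 1 higher and 1 lower, against 4.7%, and the median log2 fold change was 0.10. Foxf2 had 5.31, 5.15 and 8.34 CPM in DBA/2J and 12.8 and 17 CPM in Gpnmb+ (-1.25, edgeR adjusted p = 0.0975), and DESeq2 called it lower. Fjx1 had 12.1, 16.1 and 10.5 CPM against 14.4 and 27.9 CPM (-0.71, edgeR adjusted p = 0.342), and leaving out Gpnmb+ pool 1 gave -1.11 and leaving out pool 2 gave -0.16. DBA/2J pool 1 was the highest pool for 6 of the 20. The calls of Smoc1, Ltbp3 and Pmepa1 were each lost without any 1 of the DBA/2J pools, with edgeR adjusted p-values from 0.0987 to 0.151 in these fits. Their log2 fold changes stayed close to those with all pools, at -0.66 to -0.72, 0.70 to 0.76 and 0.75 to 0.85. Leaving out a Gpnmb+ pool also ended all 3 calls, except that of Smoc1 without pool 1. All 3 calls held in DESeq2.

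**Figure D5:**
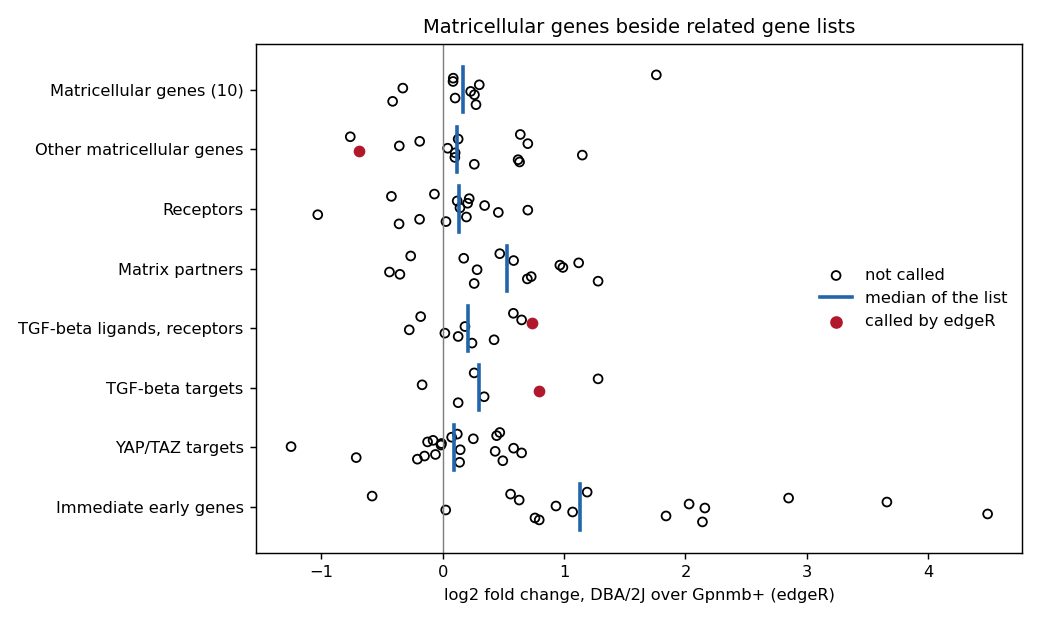
Log2 fold change (DBA/2J over Gpnmb+, edgeR) of the tested genes reported from each list, with called genes filled in red and a blue bar at each list's median. The 10 matricellular genes hold no call and a median of 0.17, and the called genes are Smoc1 on the lower side and Ltbp3 and Pmepa1 on the higher side.

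For several cell type marker lists, the summed RNA did not overlap between genotypes. Counts of calls in these lists are by edgeR unless stated, which called 0.796% of all genes. The summed level of 5 ciliary epithelium markers was 685 to 887 CPM in DBA/2J and 159 to 252 CPM in Gpnmb+, and 2 of them, Six6 and Col9a1, were called higher. Of 8 skeletal muscle markers 0 were called, and their sum was 212 to 494 CPM in DBA/2J and 133 to 204 CPM in Gpnmb+. Of 9 tendon and cartilage markers, cell types in which Thbs4, Tnc and Tnxb are known to be made, 1 was called lower (Mkx), and the sum was 261 to 271 CPM against 195 to 215 CPM. Of 6 trabecular meshwork markers 2 were called lower, Inmt and Edn3, while their sum, mostly Chi3l1, was 3970 to 4960 CPM in DBA/2J and 2570 to 3170 CPM in Gpnmb+. All 4 Schwann cell markers were lower in DBA/2J, and 1 of them was called. Their sum ran from 135 to 179 CPM in DBA/2J and from 209 to 253 CPM in Gpnmb+. No smooth muscle, endothelial or lens marker was called by edgeR. Summed levels of smooth muscle markers were 989 to 1070 CPM in DBA/2J and 1090 to 1130 CPM in Gpnmb+, of endothelial markers 409 to 516 and 395 to 403 CPM, and of lens markers 5.45 to 7.49 and 3.35 to 5.3 CPM. DESeq2, against 4.7% of all genes, called 4 ciliary epithelium and 2 skeletal muscle markers higher and 3 Schwann cell markers lower. It called 4 tendon and cartilage markers higher and 2 lower, and 1 trabecular meshwork marker higher and 3 lower. Photoreceptor markers ran from 313 to 1700 CPM across pools and followed no genotype. The part of these cell types in the matricellular values was not tested.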

How the data were processed

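RNA of 5 pools of mouse iridocorneal angle tissue was measured (3 DBA/2J, 2 Gpnmb+). Per the labels and the methods, trimming used fastp and alignment to GRCm39 used STAR, and the authors deposited raw counts per gene of reads with a single alignment, without normalization. The counting strand is not given in the sources used here, so genes with an overlapping neighbour are uncertain. All columns of the table were used.

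Names, exons and sequences came from GENCODE M39 on GRCm39, a later annotation than the authors', which named 56323 of the 56941 identifiers (Chil1 as Chi3l1). Genes reaching 10 counts in any pool were tested in R 4.3.3 with edgeR 4.0.16 (TMM, quasi-likelihood test, no covariate), and adjusted by Benjamini-Hochberg over all of them. CPM per kb used merged exons, and distances between profiles used log2 CPM with a prior count of 2 over genes with a mean of at least 1 CPM. The procedure was tested on simulated data with 200 changed genes. The simulation held no outlying pool such as DBA/2J pool 1, so it does not show how the test behaves with that pool. Alternatives used DESeq2 1.42.0, ashr 2.2.63, limma 3.58.1 (voom), other filters and lengths, a replicate block and each pool left out. Lists were described by counts and medians over the listed genes, with no set test. Windows of 250 bases were searched for motifs in Python 3.11.15 with pandas 2.3.3, and figures were drawn with matplotlib.

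The matricellular genes and all lists were chosen with earlier results of these data known. Named from each list were the called genes (at most 4, by adjusted p) and the 2 largest absolute log2 fold changes at a mean of at least 1 CPM. For the matricellular gene of smallest p, its 3 nearest genes were named, and for each its nearest among the 10. Marker lists were given where their sums did not overlap between genotypes or differed over 2-fold. Apart from these, Arc, Nr4a3, Muc5ac, Reg3g, Il6, Fosb, Ptgs2, Egr1, Apold1, Btg2, Klf4 and Krt12 were named after their values were seen. Protein measurements were not analysed here. A few listed genes and 1 upstream sequence are left out of the text.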

Additional observations from a re-analysis of the deposited data

How the results depend on the processing

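The count of matricellular genes called was 0 with DESeq2's size factors, DESeq2, ashr, voom, filterByExpr, no count filter, the replicate block, unadjusted p, no fold change minimum and each pool left out. The lowest adjusted p of any of the 10 in these fits was 0.0862, for Tgfbi under the replicate block. Over 12 alternatives, 111 of 120 log2 fold changes kept their sign and 9 did not, all with a pool left out. Without DBA/2J pool 1 these were Tnc (-0.26), Ccn2 (-0.0497) and Tgfbi (-0.14). Without Gpnmb+ pool 1, Thbs4 was 0.0129. Without Gpnmb+ pool 2 they were Thbs2 (-0.15), Thbs3 (-0.0833), Tnc (-0.12), Postn (-0.0111) and Tgfbi (-0.12). With each pool left out in turn, the values ran from -0.26 to 0.34 for Tnc, -0.0497 to 0.50 for Ccn2, -0.14 to 0.79 for Tgfbi, -0.74 to 0.0129 for Thbs4, -0.15 to 0.36 for Thbs2, -0.0833 to 0.63 for Thbs3 and -0.0111 to 0.23 for Postn. Ccn1 ran from 0.13 to 2.19. The median of the 10 ran from -0.10 to 0.33. The cause was not tested.

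The number of genes called, 157 of 19713, was 927 with DESeq2, 734 with ashr, 360 without a count filter, 1710 with unadjusted p, and 1 to 217 with each pool left out, of which 6, 1 and 17 without DBA/2J pools 1, 2 and 3 and 2 without Gpnmb+ pool 2. Without a Gpnmb+ pool, that group has a single library that is assumed to vary like the DBA/2J pools. Deviations from the group means of pools with the same number correlated at 0.279 and 0.254. The deviations of the 2 Gpnmb+ pools are equal in size and opposite in sign, so these are not 2 separate observations. Moreover, 2 shared numbers do not show that the pools are paired, and the replicate block gave 220 calls. Under it the call of Ltbp3 was lost (0.71, adjusted p = 0.0528), and Col3a1 (1.03, adjusted p = 0.0376) and Foxf2 (-1.5, adjusted p = 0.0469) were called. Levels per kb depend on the length used: by coding length, Ccn2 stood at 717 and Postn at 130 CPM per kb.

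The 95% intervals of 8 of the 10 genes reach beyond a 1.5-fold change. Each of the 10 had at least 559 counts in every pool.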
